A study of Daphnia magna with 12 samples.

Results

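In Daphnia magna, 71 of 21456 gene models were nearly silent in young females and were read in old ones. They were chosen from raw read counts: at most 3 counts in each of the 4 young libraries, and at least 10 counts in at least 3 of the 4 libraries of an old group. Of the 71 member genes, 39 met the old minimum only in old females that had stopped reproducing, 19 met it in both old groups, and 13 met it only in old females that were still reproducing. All libraries came from whole body, somatic tissue of singly housed females of the clone GB-EL75-69, fed alike and with no treatment other than age. The young females were 20 days old and reproducing, while the females of the old groups were aged 130 to 170 days, and each of the 3 groups had 4 libraries. The animals were 1 clone, there was no young group that had stopped reproducing, and the labels do not say whether a library holds 1 female or several.

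Daphnia females reproduce clonally through much of adult life, releasing a brood at about each moult, and fecundity declines late in life. Some old females stop laying eggs and others go on, so age and reproductive state can be separated in part by comparing the old groups. A gene whose RNA is near the detection limit in a whole animal may still be used in a small tissue. In such bulk samples a rise through more cells of a type and a rise through more RNA per cell cannot be told apart. The deposited gene IDs come from an automatic annotation and are not paired with gene names, and 0 of them matched the reference gene table. The roles of the member genes and the labelled tissue were therefore not checked against known genes. Members are numbered here by their mean RPKM (reads scaled to model length in kilobases and to 1000000 reads of the library) over the 8 old libraries, the highest first.

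Library totals ranged from 16015869 to 25659597 counts. For the member genes, replicate 1 of the old non-reproducing group was unlike replicates 2 to 4. It held 1423 member counts, against 8950, 22144 and 20503 in replicates 2, 3 and 4, while its total of 23324131 counts was the largest of its group. Results that rest on this library are given with and without it. Replicates 2 to 4 were all above replicate 1 and above all 4 old reproducing libraries in 29 of the 71 members, and in 6.04% of the 10987 genes tested. Of the 29, 28 met the minimum in old non-reproducing females only, so the rule, which asks for 3 high libraries, fixes part of this count and nothing is read from the difference.

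The limits of the rule were close together on the scale of normalised counts per 1000000 (CPM). The young limit of 3 counts corresponded to 0.108 to 0.204 CPM, depending on the library, and the old minimum of 10 counts to 0.395 to 0.576 CPM. The third-highest count of the better old group was exactly 10 in 21 members and 11 in 8 members. Just outside the rule, 12 gene models reached 9 and 19 reached 8. On the young side, the highest young count was 0 in 5 members, 1 in 14, 2 in 26 and 3 in 26. A further 36 gene models that met the old minimum had a highest young count of 4, and 30 had 5. The edge of the set thus ran through a dense run of weakly read genes. The count of members moved with the scaling of the counts and with the libraries used. With all counts scaled to the smallest library total, 49 genes met the rule, 38 of them among the 71. Leaving out a young library can only add genes. Without young replicate 1, 2 or 3, 85, 79 and 82 gene models met the rule. Without young replicate 4, the deepest young library, 124 did. Leaving out an old library left no spare library in its group. Without old non-reproducing replicate 1, 2, 3 or 4, 61, 41, 39 and 35 gene models met the rule. Without old reproducing replicate 1, 2, 3 or 4, 61, 62, 59 and 63 did.

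The same limits were applied to the labelled groups in the opposite direction. No gene model (0) was silent in all old reproducing libraries and detected in young, against 32 in the forward direction. Between young and old non-reproducing females, 7 gene models were silent in old and detected in young, against 58 in the forward direction. On counts scaled to the smallest library total the numbers were 0 against 19 and 5 against 44. The counts were also uneven between the old groups. On raw counts, 22 gene models were silent in old reproducing and detected in old non-reproducing females, and 15 of these were members. In the reverse direction there was 1. On the scaled counts it was 22 against 0. In the 7 genes the young libraries were uneven. The fourth of them on the list, a model of 445 nucleotides on contig 000008F, had 1, 217, 10 and 464 counts in young replicates 1 to 4, and 3, 1, 0 and 1 in the old non-reproducing libraries. Silence of this kind was general in the table, since 7837 gene models held at most 3 counts in every young library, 7400 in every old reproducing library and 7523 in every old non-reproducing library.

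**Figure D1:**
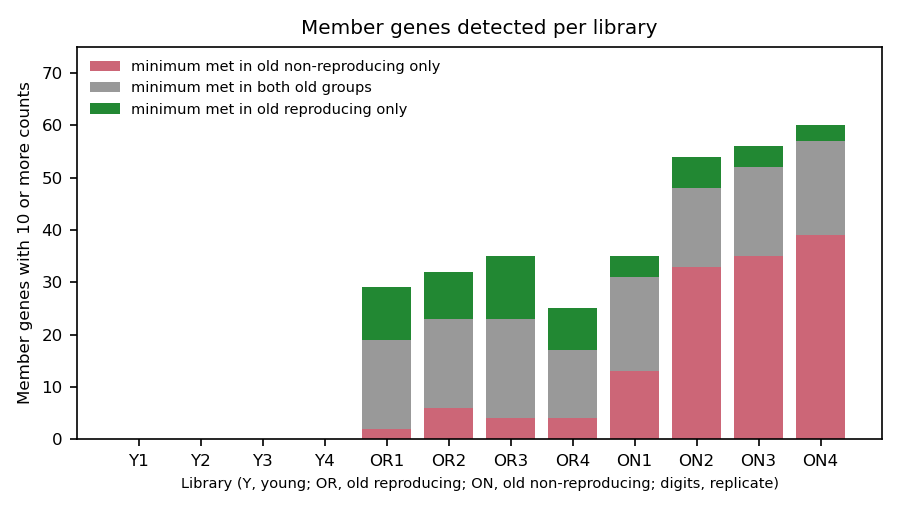
Number of the 71 member genes with 10 or more counts (vertical axis) in each of the 12 libraries (horizontal axis), stacked by the old group in which the minimum was met. Old reproducing libraries held 25 to 35 such genes, old non-reproducing replicate 1 held 35, and replicates 2 to 4 held 54 to 60.

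Old libraries differed in how many of the members they read. The number with at least 10 counts was 29, 32, 35 and 25 in old reproducing replicates 1 to 4, and 35, 54, 56 and 60 in old non-reproducing replicates 1 to 4. In young libraries it was 0 by the rule. Summed over the members, the level was 3.16 to 3.74 CPM in young, 40.4, 35.3, 44.1 and 49.8 CPM in old reproducing replicates 1 to 4, and 57.8, 472, 1240 and 905 CPM in old non-reproducing replicates 1 to 4. The young sums were capped by the rule. The old reproducing sums lay closer together than the old non-reproducing ones, which spread over more than an order of magnitude. A few strongly read genes made up most of the summed level in old non-reproducing replicates 2 to 4. The first 8 members held 78.3%, 78.4% and 84.2% of the member counts in old non-reproducing replicates 2 to 4, and 4.15% in replicate 1. Without these 8, the summed level was 55.4, 103, 268 and 143 CPM in replicates 1 to 4, against 35.1 to 48.9 CPM in old reproducing libraries. All 8 met the minimum in old non-reproducing females only, so their difference between the old groups is partly fixed by how the members were chosen.

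**Figure D2:**
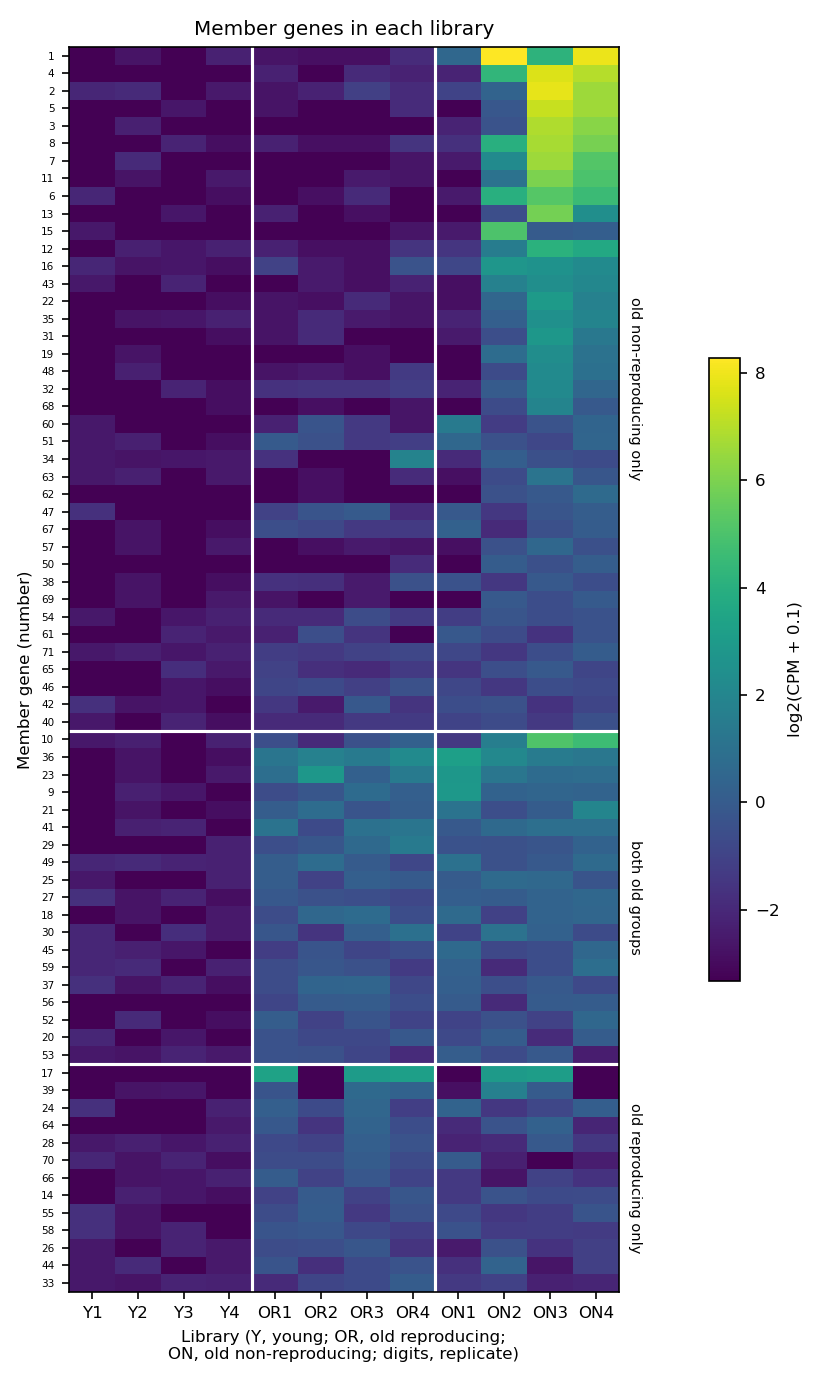
Level of the 71 member genes (rows, by number, grouped by the old group in which the minimum was met) in the 12 libraries (columns), as log2(CPM + 0.1). The highest levels lie in old non-reproducing replicates 2 to 4, and replicate 1 of that group is dark for most of the same rows. Most members that met the minimum in both old groups are at low levels. An exception is member 10, which spans 0.158 to 34.3 CPM over the 8 old libraries.

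The 39 members that met the minimum only in old non-reproducing females included all of the highest levels. Their mean in that group ranged from 0.439 to 145 CPM with a median of 1.71 CPM, and 16 of them reached 100 counts in some old library. In 15 of the 39 every old reproducing library was at 3 counts or fewer, and in 14 of these replicate 1 of the old non-reproducing group held at most 3 as well. Replicate 1 was the lowest of its group in 29 of the 39. Over all genes tested it was the lowest in 25.7%. In 28 of the 39, replicates 2 to 4 were all above replicate 1 and above every old reproducing library. Over the genes tested that share was 6.04%. The rule asks for 3 high libraries in a group, so the choice of members bears on these counts. Nothing is read from them.

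Member 1, augustus_masked-000035F-processed-gene-1.44, had the highest mean level. It held 0, 1, 0 and 3 counts in young replicates 1 to 4, 1, 1, 1 and 3 in old reproducing replicates and 34, 5889, 318 and 5630 in old non-reproducing replicates. Young and old reproducing libraries overlapped near 0, all old non-reproducing libraries were higher, and within that group replicate 1 was lowest. Over the group sums the old non-reproducing to young ratio was 2745. Its exact 95% interval for counting error was 1072 to 10076, which leaves out the spread between libraries. The rule limited the young counts, so the ratio and its interval are only a description.

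Members 2 and 3 carry IDs on contig 000018F that share their first number. Member 2 held 2, 3, 0 and 2 counts in young, 1, 3, 9 and 3 in old reproducing and 10, 23, 4142 and 2174 in old non-reproducing replicates. Member 3 held 0, 2, 0 and 0 counts in young, 0 in every old reproducing library and 3, 13, 2147 and 1704 in old non-reproducing replicates. In both, replicates 3 and 4 were far above replicate 2, in contrast to member 1, which was as high in replicate 2 as in replicate 4. Member 5 followed the same order, with 0, 15, 2823 and 2247 counts in old non-reproducing replicates, and at most 3 in every other library.

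Member 4 was listed at 0 in every young library. It held 2, 0, 4 and 2 counts in old reproducing replicates and 3, 377, 3618 and 2834 in old non-reproducing replicates. Its old non-reproducing mean was at least 531-fold higher than a young mean set at the floor of 3 counts per library. Member 6 held 2, 0, 0 and 1 counts in young, 0, 1, 4 and 0 in old reproducing and 2, 301, 655 and 539 in old non-reproducing replicates. For members 4 and 6, replicate 1 of the old non-reproducing group was at 2 to 3 counts, within the range of the old reproducing libraries. Members outside the naming rule showed that a single library could carry the group mean, and these were chosen after their values were seen. Member 15 had 619 counts in old non-reproducing replicate 2, and 2, 16 and 23 in replicates 1, 3 and 4. Member 34 met the minimum with 19, 11 and 12 counts in old non-reproducing replicates 2 to 4, but its highest library was old reproducing replicate 4, with 61 counts against 4, 0 and 0 in the other old reproducing libraries.

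**Figure D3:**
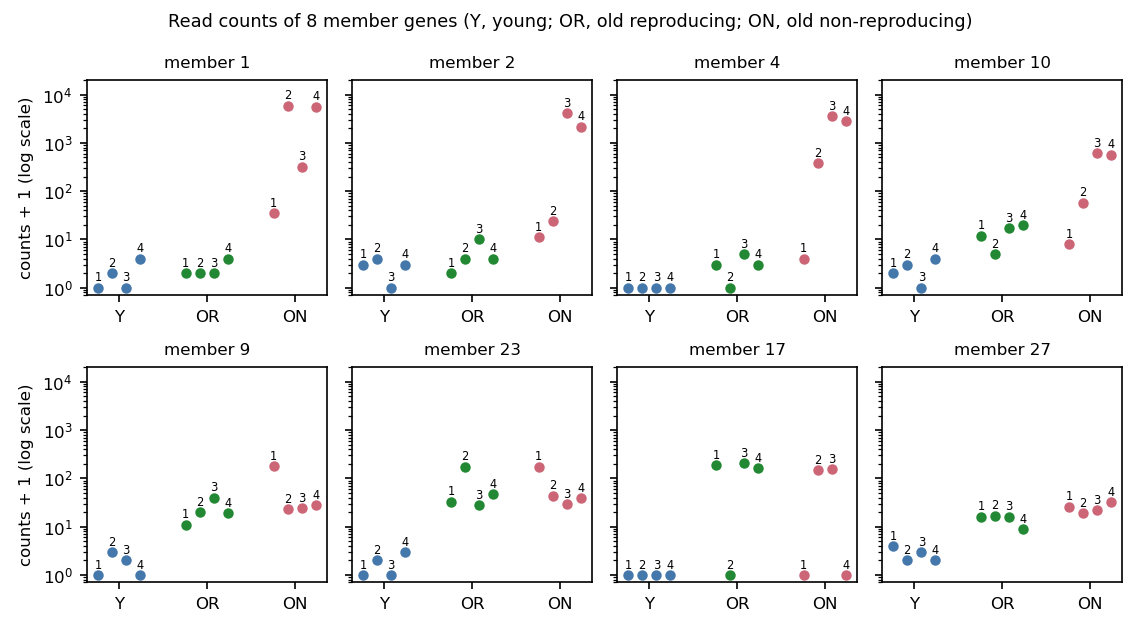
Read counts plus 1 (vertical axis, log scale) of members 1, 2, 4, 10, 9, 23, 17 and 27 in young (Y), old reproducing (OR) and old non-reproducing (ON) libraries, 1 point per library with its replicate number. Member 1 spans 34 to 5889 counts within the old non-reproducing group, member 17 is either at 0 or at 149 to 208 counts in the old libraries, and member 27 lies at 8 to 31 counts in all of them.

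The 19 members that met the minimum in both old groups were read at low levels. Their means ranged from 0.474 to 3.19 CPM in old reproducing and from 0.608 to 15.6 CPM in old non-reproducing females, and 7 of them had at least 10 counts in all 8 old libraries. Among these 7, maker-000003F-augustus-gene-9.39 (member 9) had the highest lowest level per length. It held 0, 2, 1 and 0 counts in young, 10, 19, 39 and 18 in old reproducing and 178, 22, 23 and 27 in old non-reproducing replicates. Replicate 1 of the last group was the high one here, and the other 3 lay within the range of the old reproducing libraries.

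Member 36, a model of 4146 nucleotides, had 0, 1, 0 and 1 counts in young, 40, 83, 68 and 80 in old reproducing and 228, 79, 49 and 52 in old non-reproducing replicates. Member 23 had 0, 1, 0 and 2 counts in young, 32, 174, 27 and 46 in old reproducing and 173, 43, 28 and 38 in old non-reproducing replicates. In CPM both were highest in old non-reproducing replicate 1 (9.26 for member 36, and 7.03 against 6.89 in old reproducing replicate 2 for member 23), the library in which the strongly read members were lowest. Of the 19, 8 were highest of their group in that library and 3 were lowest in it. Members 21, 25 and 29 also reached the minimum in all 8 old libraries. Their old means were 1.07 ± 0.388, 0.817 ± 0.289 and 1.37 ± 0.936 CPM in reproducing and 1.84 ± 1.44, 1.13 ± 0.395 and 0.790 ± 0.242 CPM in non-reproducing females (SD, n = 4 each). For none of these 3 did the old groups separate. Members 18 and 20 had nearly equal means in the old groups, 1.01 ± 0.524 and 1.09 ± 0.501 CPM for member 18 and 0.602 ± 0.161 and 0.633 ± 0.376 CPM for member 20 (reproducing, then non-reproducing, SD, n = 4 each).

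Member 10 differed from the rest of the 19. It had 1, 2, 0 and 3 counts in young, 11, 4, 16 and 19 in old reproducing and 7, 57, 613 and 565 in old non-reproducing replicates. Its old non-reproducing replicates 2 to 4 thus followed the order of members 2 to 5, and replicate 1 lay among the old reproducing libraries. From old reproducing to old non-reproducing females its level changed by 4.66 on the log2 scale (SE 1.18), with an adjusted p of 0.206 in edgeR's quasi-likelihood fit to all 10987 genes. Without old non-reproducing replicate 1 it was 5.08 (SE 0.83, adjusted p = 0.00817 by edgeR), and the gene was called. That library was singled out from the member counts and held only 7 counts of this gene, so nothing is read from this call.

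Whether the old groups differed was tested only for these 19, since the rule did not fix the direction for them. In edgeR's quasi-likelihood fit, called at adjusted p below 0.05, 0 of 19 were called in either direction, as were 0% of all genes tested, and 2 of 19 had an unadjusted p under 0.05, both higher in old non-reproducing females. Over all genes the share with an unadjusted p under 0.05 was 5.12% higher and 2.95% lower. The smallest adjusted p of the 19 was 0.206, and DESeq2 called 1 of the 18 to which it gave an adjusted p. That was member 10, which was higher, and over the table DESeq2 called 2.52% of genes higher and 0.302% lower. Member 27 had the next smallest p after member 10. It had 15, 16, 15 and 8 counts in old reproducing and 25, 18, 21 and 31 in old non-reproducing replicates, and in CPM all 4 old non-reproducing libraries were above all 4 old reproducing ones. The change was 0.84 on the log2 scale (SE 0.37), with an edgeR adjusted p of 0.592. No overlap in that direction was seen in 1 of the 19, and in 2.27% of the genes tested. In 0 of the 19 were all old non-reproducing libraries the lower ones, against 1.97% of the genes tested. For member 9 the log2 value was 1.48 (SE 0.70) with an edgeR adjusted p of 0.641, and without old non-reproducing replicate 1 it was 0.32. Member 45 had 6, 18, 11 and 10 counts in old reproducing and 36, 9, 10 and 31 in old non-reproducing replicates, a log2 value of 0.91 (SE 0.54) with an edgeR adjusted p of 0.728. By means, 16 of the 19 were higher in old non-reproducing females, with a median log2 change of 0.29, where 49.6% of all genes tested were higher and the median was -0.00294. Without old non-reproducing replicate 1, 12 of the 19 were higher, with a median of 0.20, where 49.0% of all genes tested were higher and the median was -0.00755. Over all 71 the share was 76.1%, but there the choice of members bears on it.

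**Figure D4:**
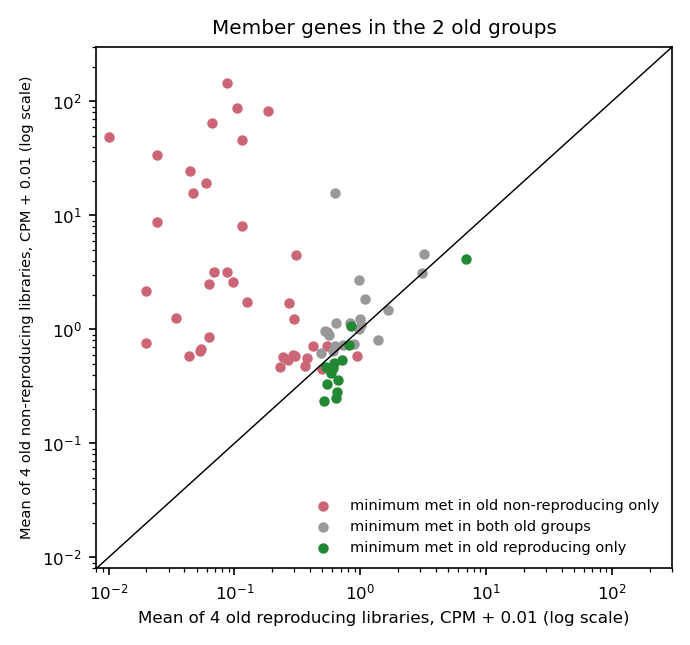
Mean level of each of the 71 member genes in the 4 old reproducing libraries (horizontal axis) and the 4 old non-reproducing libraries (vertical axis), as CPM + 0.01 on log scales, coloured by the old group in which the minimum was met. The line marks equal means, and 54 of the 71 members (76.1%) have the higher mean in old non-reproducing females, against 49.6% of all genes tested. The choice of members bears on this share.

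For the members that met the minimum in 1 old group, the difference between the old groups is a description, because the rule used it. Whether it was called differed with replicate 1 and with the tool. With all libraries edgeR called 0 of the 38 members that passed the filter on low counts, and 0 of the 71 when no filter was used. Without old non-reproducing replicate 1 it tested 60 members and called 26, namely 25 members higher in the old non-reproducing group, beside 2.43% of all genes, and 1 member lower, beside 0.480% of all genes. The 25 were 24 of the 39 members that met the minimum in old non-reproducing females only, among them members 1 to 8, and member 10. Of the 24, 22 had not passed the filter with all libraries. The lower one was member 70, with 10, 14, 24 and 9 counts in old reproducing and 22, 2, 0 and 2 in old non-reproducing replicates. DESeq2 on all libraries called 21 of the 69 members it tested, all higher, beside 2.52% of all genes called higher and 0.302% lower.

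The 13 members that met the minimum only in old reproducing females were mostly weak. Their old reproducing means ranged from 0.509 to 6.93 CPM with a median of 0.629 CPM, and in none of the 13 did all 4 old reproducing libraries reach 10 counts. In old non-reproducing females the median of the means was 0.448 CPM. The third-highest count there, on which the minimum acts, was 9 in member 14, 8 in member 24 and 0 to 6 in the other 11. Member 14, a short model of 150 nucleotides, had 7, 23, 10 and 13 counts in old reproducing and 7, 13, 9 and 12 in old non-reproducing replicates. Members 26 and 28 had 10, 15, 19 and 4 counts and 9, 10, 26 and 12 counts in old reproducing replicates, against 2, 12, 4 and 8 counts and 3, 3, 15 and 6 counts in old non-reproducing replicates. The old groups overlapped in all 3 genes. In CPM, member 66 was the only one of the 71 with all old non-reproducing libraries below all old reproducing ones. It held 7, 1, 7 and 5 counts against 17, 10, 20 and 7. Over the genes tested 1.97% had no overlap in that direction. In the other direction it was 7 of the 71, against 2.27% of the genes tested. The choice of members bears on both counts, and nothing is read from them.

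Member 17 was present or absent by library rather than by group. It was listed at 0 in every young library, had 187, 0, 208 and 162 counts in old reproducing replicates and 0, 149, 155 and 0 in old non-reproducing replicates. Where it was read, its level was even, at 7.86 to 10.2 CPM. The 3 old libraries at 0 had totals of at least 22822950 counts, and a count of 0 allows at most 3 counts, or 0.119 to 0.132 CPM, for counting error only. Across the 8 old libraries the member most alike was member 39, with a Pearson r of 0.941 of log2(CPM + 0.1). Member 39 had 13, 0, 37 and 20 counts in old reproducing and 1, 62, 16 and 0 in old non-reproducing replicates. Among all gene models the most alike was one on contig 000047F (r = 0.992), which was read in every library. It had 157, 32, 194 and 155 counts in old reproducing and 43, 143, 121 and 33 in old non-reproducing replicates, and 11, 29, 35 and 67 in young. These coefficients are the highest of many over the same 8 libraries, and are given as a description.

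Against young females the change of the members was fixed by the rule, and the fitted calls are given only as a record. Of the 71 members, 38 passed the filter on low counts, namely all 19 that met the minimum in both old groups, 9 of 39 and 10 of 13. edgeR called 30 of the 38 higher in old non-reproducing than in young females, where 7.73% of all genes tested were called higher and 4.26% lower. It called 18 higher in old reproducing than in young females, where 2.80% of all genes were called higher and 0.0728% lower. Both comparisons share the young libraries. The filter asks for about 10 counts in at least 4 libraries, and members 2 to 8 were among the 33 that did not pass it.

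Features that the rule did not use were compared with the whole table. The median length of the members was 1253 nucleotides, against 1481 for all gene models and 2204 for the genes tested. A short model gathers fewer reads at a given level, so length also bears on which genes stay under a count limit. By the type written in the ID, 66.2% of the members were combined maker models, against 72.3% of all gene models, and 15.5% were genemark models, against 13.1%. The members came from 44 contigs, and 31 contigs held a single one. Contig 000023F held 6 of the members among its 411 gene models, and contigs 000007F and 000018F held 5 each among 527 and 544. The 5 on contig 000018F were members 2, 3, 12, 35 and 63, all of which met the minimum in old non-reproducing females only.

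The IDs carry, after the contig, a pair of numbers, and gene models that share the contig and the former number may lie near each other. The files give no positions. Members fell into 63 such ID blocks of the 1448 in the table, and 7 blocks held more than 1 member, with 15 members in all. The block with the most was block 14 of contig 000014F, with members 4, 7 and 8 among 20 gene models. Member 7 held 87, 1704 and 804 counts in old non-reproducing replicates 2 to 4 and 2 in replicate 1, and member 8 held 300, 1953 and 1332, and 5 in replicate 1. Like member 4, both were highest in replicate 3 and lowest of the 3 in replicate 2.

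**Figure D5:**
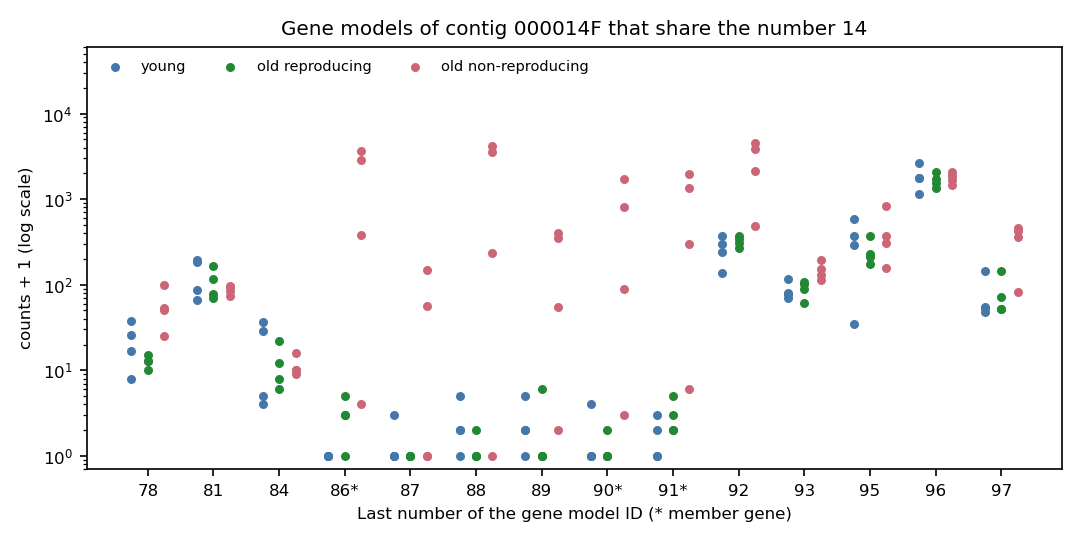
Counts plus 1 (vertical axis, log scale) in the 12 libraries for 14 of the 20 gene models of contig 000014F that share the number 14. The horizontal axis gives the last number of the ID, with members marked by an asterisk, and there is 1 point per library. Shown are the models whose IDs begin with maker-000014F-augustus, and the others of the block are left out. Models 86 to 91 hold at most 5 counts in all young and old reproducing libraries and reach 148 to 4200 counts in old non-reproducing females, while model 96 holds 1158 to 2615 counts in every library.

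The 3 models with last numbers between those of members 4 and 7, numbered 87, 88 and 89, held at most 5 counts outside old non-reproducing replicates 2 to 4. Models 88 and 89 missed the rule by a single young count of 4, and model 87 reached the minimum in 2 libraries only. Model 88 held 0, 1, 1 and 4 counts in young, 0, 1, 0 and 0 in old reproducing and 0, 234, 4200 and 3535 in old non-reproducing replicates. Model 89 held at most 4 counts in young and 54, 405 and 346 in old non-reproducing replicates 2 to 4. Model 87 had 148 and 55 counts in old non-reproducing replicates 3 and 4 and 0 in replicates 1 and 2. Model 92 had 135 to 374 counts in young and 488, 2156, 3905 and 4515 in old non-reproducing replicates, so it was read in young females and also high in the same libraries. Model 96, by contrast, had 1158 to 2615 counts in every library of the 3 groups. Whether these models are near-identical copies between which reads cannot be assigned was not tested, so the split of counts among them is uncertain.

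Block 25 of contig 000013F held members 19 and 22, which have consecutive last numbers. Member 19 had 0, 31, 90 and 44 counts and member 22 had 1, 25, 142 and 76 counts in old non-reproducing replicates 1 to 4, and neither held more than 4 counts in any other library. Over the old libraries r was 0.989 between them, and 0.993 between members 2 and 3. In the same block the gene model numbered 108 had 24 to 604 counts in young and 247, 25397, 63877 and 49585 in old non-reproducing replicates. It had 64, 23, 152 and 4084 in old reproducing replicates, so replicate 4 of that group was above old non-reproducing replicate 1. In block 3 of contig 000018F, too, the gene model numbered 108 was read in young females, with 109 to 249 counts, and had 144, 740, 4381 and 3435 in old non-reproducing replicates. There, however, the models numbered 68 and 69, whose last numbers lie between those of members 2 and 3, had 10 to 16 and 1022 to 1689 counts in young and 11 to 21 and 667 to 1988 counts in old non-reproducing libraries.

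The members moved together to different degrees. Over the 8 old libraries the median Pearson r of log2(CPM + 0.1) between pairs was 0.664 among the 39 members that met the minimum in old non-reproducing females only, 0.03 among the 19 that met it in both old groups and 0.09 among the 13 that met it in old reproducing females only. The first set was chosen for counts in the same libraries, and how much this adds to r was not tested. Member 10 was most like a gene model of its own contig, 000028F, at r = 0.999. That model held 1, 4, 1 and 6 counts in young and 7, 84, 829 and 742 in old non-reproducing replicates, and so lay just outside the rule.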

How the data were processed

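RNA of 12 libraries was sequenced. The labels' protocols name Qiagen RNeasy for extraction and NEBNext Ultra II Directional for library preparation. STAR and SAMtools are named in the submitters' processing notes; the counting program, its strand setting and the genome build are not given in the sources used here. The files deposited by the authors hold, for each gene model, an unnormalised read count and an RPKM value per library. The deposited RPKM values equal counts scaled by library total and 1 length per gene, to within 1.26e-06 percent, and gave the lengths, except for 1 gene with no value.

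Members were taken from the counts as deposited. The members and lists were chosen with earlier results of these data known. Counts were tested with edgeR 4.0.16 in R 4.3.3: filterByExpr kept 10987 of 21456 gene models, TMM factors scaled the libraries, and a quasi-likelihood fit with 3 group means and no covariate used all 12 libraries. P-values are two-sided and Benjamini-Hochberg adjusted over all genes tested, and a gene is called at an adjusted p under 0.05. CPM uses TMM-scaled sums over the genes tested. SE is the size of the log2 value over the root of its F statistic. The script was tested on simulated data. DESeq2 1.42.0 on counts and limma 3.58.1 on log2 RPKM were alternatives. Libraries in a group differed beyond sampling noise in all 18 pairs (chi-square per degree of freedom at least 84.8). The labels do not say that libraries come from separate animals, so p-values measure the spread between libraries. Library numbers run in 1 block per group, so anything that follows these numbers cannot be told apart from group. Whether the numbers reflect an order of preparation was not checked.

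Individually described are the 6 members with the highest minimum RPKM among those with at least 10 counts in all 8 old libraries, the 6 of highest mean RPKM in each old group, the 4 of highest mean RPKM among those meeting the minimum in that old group only, and the 4 of lowest p between the old groups among those meeting it in both. At most 2 IDs are printed because the files pair no names with them. Members 7, 8, 12, 15, 19, 22, 34, 35, 39, 63, 66 and 70 and the non-member gene models were chosen after their values were seen. Ratio intervals and floors cover counting error only, and the rule limited the young counts on which they rest.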

Additional observations from a re-analysis of the deposited data

Results flagged for a closer look

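Single libraries were compared with the other 3 of their group by the gap to the nearest library over the whole range (Dixon's ratio, against its 95% limit), for the number of members read, their summed level and the 21 individually described members. Of 47 groups of values 3 passed the limit, where chance flags about 1 in 20, or 2.35. Member 9 had 7.23 CPM in old non-reproducing replicate 1, against 1.16 to 1.29 CPM in the other 3. Member 23 had 7.03 CPM in the same library, against 1.57 to 2.27 CPM. Member 1 had 0.173 CPM in old reproducing replicate 4, against 0.0395 to 0.0545 CPM, which rests on 3 counts against 1 in each of the others.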

How the results depend on the processing

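The number of members was 66 on TMM-scaled counts and 49 on counts scaled to the smallest total. Young limits of 0, 1 and 5 counts gave 5, 19 and 137 genes, old minimums of 5, 20 and 50 counts gave 230, 22 and 11, and asking for all 4 libraries gave 16. Leaving out 1 library gave 35 to 124. Between the old groups, 0 members were called, as were 0% of all genes. With the replicate block it was 1 (member 1), beside 0.0091% of all genes. DESeq2 called 21, beside 2.52% of all genes higher and 0.302% lower. Without 1 library it was 0 to 26, beside 0 to 2.43% of all genes higher and 0 to 0.48% lower. Among the 19 that met the minimum in both old groups the number called was 0, with 1 by DESeq2 and 0 to 1 without 1 library. Against young the rule fixes the direction: 30 members were called in old non-reproducing females, 63 with DESeq2 (10.3% of all genes called higher), 49 unfiltered (3.09%), 10 when only the 8 libraries compared were fitted (3.85%), 18 with limma-trend on log2(RPKM + 1) (5.39%) and 22 to 54 without 1 library (3.99 to 8.68%). In old reproducing females 18 were called, 10 with the replicate block (1.62%), 7 when only the 8 libraries compared were fitted (1.79%), 28 with DESeq2 (3.64%) and 11 to 18 without 1 library (1.73 to 2.58%). Leaving out 1 library also lowers the number of libraries that the filter asks for, so more members enter the fit. Over all members, the share with the higher mean in old non-reproducing females was 71.8 to 76.1% in every alternative tried. Of all genes tested, 49.6% had the higher mean in that group with all libraries. The choice of members bears on the share over all members, so nothing is read from its narrow range. Among the 19 that met the minimum in both old groups, 16 were higher with all libraries. Without old non-reproducing replicate 1, 12 of the 19 were higher, beside 49.0% of all genes tested.

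Small uncalled log2 changes between the old groups turned sign. Member 23 (0.02) gave -0.0212 with upper-quartile factors, -0.00861 and -0.0162 with limma-trend at pseudocounts of 1 and 0.1, and -0.75 to 0.82 without 1 library. Member 20 (0.09) gave -0.0121 with the replicate block, -0.0780 and -0.23 with limma-trend, and -0.16 to 0.39 without 1 library. Members 36 and 18 ranged from -0.0533 to 0.76 and from -0.10 to 0.39 without 1 library. The cause was not tested. Same-numbered libraries deviated together at r over 0.1 in 3 of 12 pairs (-0.47 to 0.36). A library was most alike its own number in 4 of 24 comparisons. With 4 libraries per group, these values cannot show whether same-numbered libraries belong together.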
